A study of Arabidopsis thaliana with 18 samples.

Results

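The UDP-glycosyltransferase (UGT) genes described here are the 47 Arabidopsis thaliana genes whose symbol in the probe table of the ATH1 array is UGT followed by a digit and whose probe set names no other gene. They were chosen by symbol alone, with no measured value, out of 13356 genes that had such a probe set. The number after UGT gives the subgroup: UGT71 had 9 genes, UGT76 had 8, UGT73 had 7, UGT84 and UGT85 had 5 each, UGT72 had 4, UGT74 and UGT78 had 3 each, and UGT80, UGT87 and UGT88 had 1 each. A further 4 UGT genes shared 3 probe sets with other genes and were not analysed here. Another 4 genes carried a UGT name only as a synonym (GT72B1 for UGT72B1, UF3GT for UGT79B1, SGT for UGT80A2 and At5g54010 for UGT79B6) and are given apart from the 47.

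The study followed mature leaves of the tocopherol-deficient mutant vte2 and of wild-type Col through low temperature (LT) treatment, and 18 arrays were analysed. The groups were vte2 and Col without LT treatment (0 h), vte2 and Col after 48 h, and vte2 and Col after 120 h at 7 °C, with 3 arrays in each group. All plants of both genotypes were 4 weeks old at transfer and had been grown at 22 °C by day and 18 °C at night; the samples at 0 h stayed in these conditions. vte2 cannot make tocopherols (vitamin E) because homogentisate phytyltransferase is mutated, and the sample labels name no allele. Every array held RNA from leaves 9 to 11 of 3 pooled plants, and the replicates were described as independent. Because whole leaves were sampled, fewer cells of a type and less RNA per cell cannot be told apart in any of the values below.

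UGT enzymes move a sugar from a UDP-sugar to a small acceptor such as a flavonoid, a hormone, a lignin precursor or a foreign compound. The sugar makes the acceptor more soluble, often takes away its activity and prepares it for storage in the vacuole. In leaves, the flavonoid glycosides that build up in cold and strong light are the best known products, and conjugates of abscisic acid, auxin, cytokinin and salicylic acid are made by other members of the family.

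The values were log2 expression levels as deposited, quantile-normalized over the 18 arrays, with array medians of 4.98 to 5.18. Arrays of a group correlated across 22810 probe sets at 0.936 to 0.991 at 0 h and at 0.983 to 0.998 later. The replicate 3 arrays of both genotypes at 0 h stood apart from replicates 1 and 2 in the same way (a correlation of their shifts of 0.791 across all probe sets), so, for genes given array by array, each LT change in the text that they moved by over 1.5 times, across the threshold or to the other sign is also given without them. As labelled, the differences between vte2 and Col at 120 h ran opposite to those at 48 h, with a correlation of -0.508 over all probe sets and opposite signs in 60.8% of them, and in 92.2% of the 77 probe sets with an adjusted p-value under 0.05 at 48 h. This is also opposite to the direction the study describes for the last time point. The mutated gene was not analysed here, so the labels at 120 h had no check of their own, and these samples are called arrays labelled vte2 and arrays labelled Col, with no direction taken as settled. Leaf genes were high in every group (group means of 12.68 to 13.52 for RCA and 11.97 to 13.14 for PSAE-1), and PYK10, a root gene, stayed at 3.19 to 3.49. All 4 leaf genes that could be matched were lower at 48 h than at 0 h, with a median change of -1.40 in vte2 and -1.10 in Col, and the part of this in the UGT changes was not tested.

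Over the 18 arrays, the mean log2 level of the 47 probe sets ranged between 3.15 for UGT71C1 and 9.55 for UGT88A1, with a median of 4.67. For UGT71C1, a probe set that passed no test, the values were 3.14, 3.46 and 3.14 in vte2 and 3.05, 2.94 and 3.14 in Col at 0 h, 3.16, 3.13 and 3.01 in vte2 and 3.09, 3.15 and 3.15 in Col at 48 h, and 3.09, 3.27 and 3.27 in arrays labelled vte2 and 3.18, 3.09 and 3.25 in arrays labelled Col at 120 h, in the order of the replicate numbers, which is kept throughout. Of the 47 probe sets, 28 lay below the median probe set and 19 above it. A probe set's level depends on how well its probes bind, so these numbers rank signals and not amounts of transcript. A gene passed the test where the Benjamini-Hochberg adjusted p-value of a limma model over all 18 arrays and all probe sets was under 0.05, and 26 of the 47 genes did so in at least 1 of the 12 comparisons. The share of all probe sets that passed at least once is not given here, and up to 34.4% passed in a single comparison. The number 26 is therefore not read as a trait of the family.

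**Figure D1:**
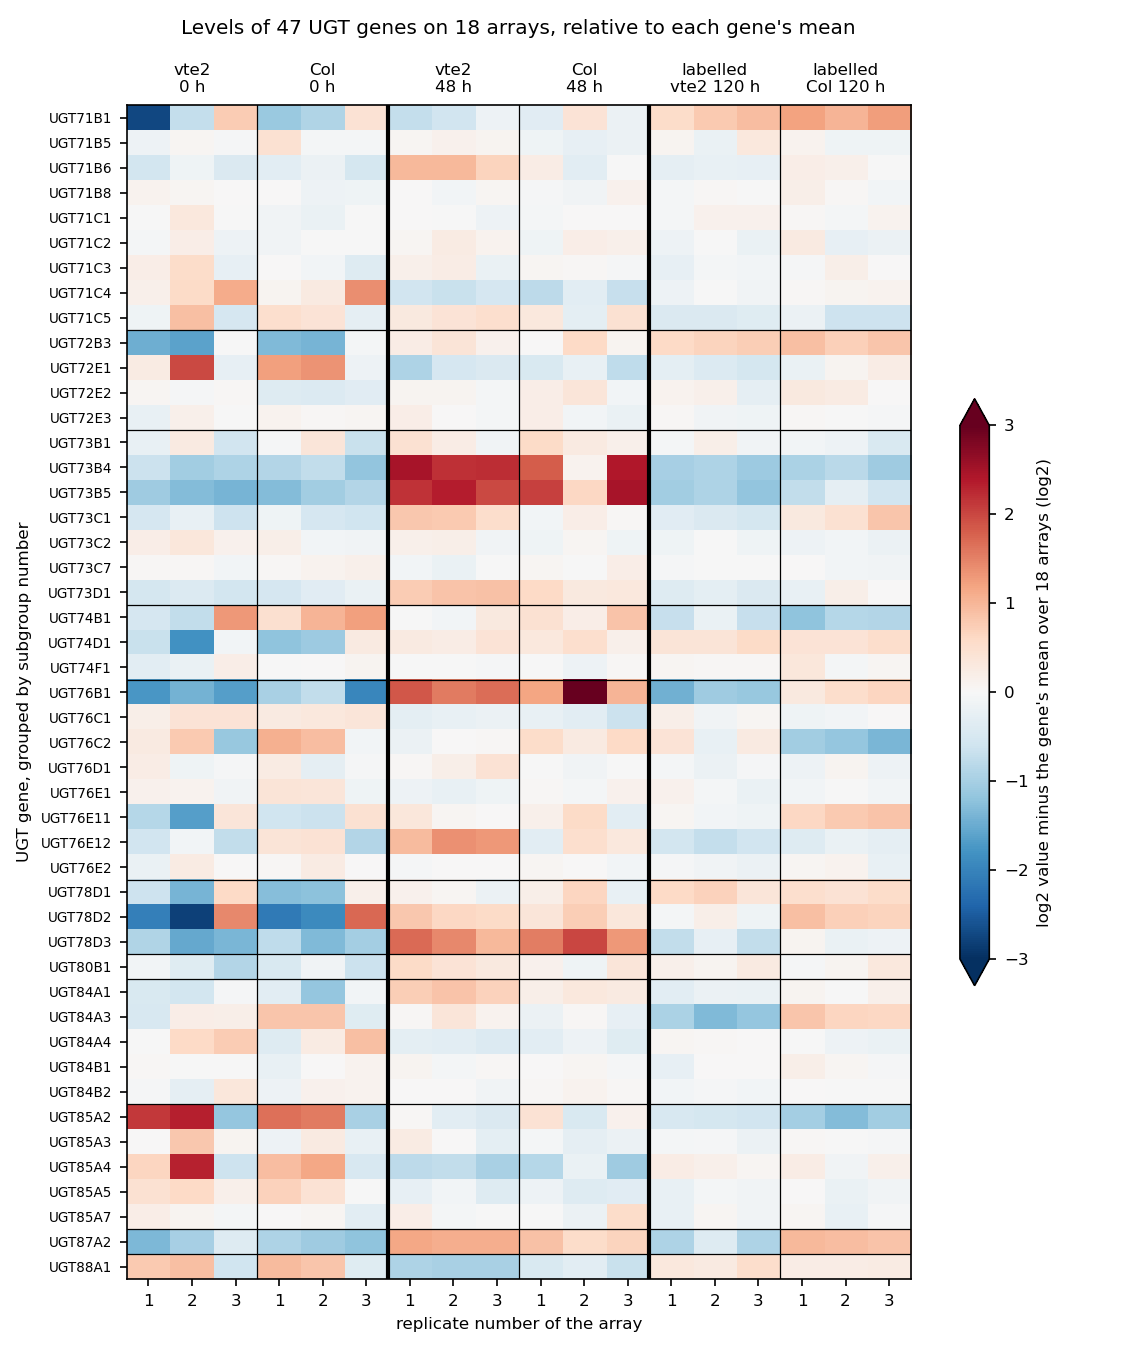
Each cell gives the log2 value of a UGT gene (rows, by subgroup) on an array (columns, by LT time, genotype label and replicate number) minus that gene's mean over 18 arrays, on a scale that ends at -3 and 3. UGT73B4, UGT73B5, UGT76B1 and UGT78D3 stand out as high at 48 h in both genotypes, and the replicate 3 arrays at 0 h differ from replicates 1 and 2 in both genotypes, for example in UGT78D2 and UGT85A2.

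After 48 h of LT treatment, 20 UGT genes in vte2 and 15 in Col differed from 0 h, and the changes beyond 2 on the log2 scale were all increases. In vte2, 13 of the 47 genes were higher and 7 lower at 48 h than at 0 h, and in Col 10 were higher and 5 lower. Among all probe sets, 34.4% passed in vte2 (17.2% higher and 17.2% lower) and 32.3% in Col (16.1% higher and 16.2% lower). The family's share was 42.6% in vte2 and 31.9% in Col, so that in Col it was level with the background. The median change of the 47 genes was 0.09 in vte2 and 0.08 in Col (log2), against -0.06 in vte2 and -0.08 in Col for all probe sets. Of the genes that passed, 14 were shared in the same direction, 70.0% of the 20 in vte2 and 93.3% of the 15 in Col. The remaining calls were UGT71B6, UGT74D1, UGT76E12, UGT80B1, UGT84A4 and UGT85A4 in vte2 and UGT72E2 in Col, and none of the 47 genes passed the test of a different 48 h change between the genotypes (background 0.0526%; 5 had an unadjusted p under 0.05). With both replicate 3 arrays at 0 h left out, 28 genes passed in vte2 (background 42.2%) and 23 in Col (38.7%).

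By subgroup, the 48 h changes were as follows. In UGT73, 4 of 7 genes were higher in vte2 and 4 of 7 in Col, none was lower, and the median change was 1.16 in vte2 and 0.47 in Col. In UGT85, none of the 5 genes was higher, 2 were lower in vte2 and 1 in Col, and the median was -0.65 in vte2 and -0.67 in Col. All 3 genes of UGT78 had positive changes, with medians of 1.80 in vte2 and 1.25 in Col, but 1 of them passed in each genotype. UGT71 had 1 gene higher and 1 lower in vte2 and 1 lower in Col among its 9, with medians of 0.13 in vte2 and 0.09 in Col. UGT76 had 2 genes higher and 1 lower in vte2, and 1 higher and 1 lower in Col, among its 8, with medians of 0.09 in vte2 and -0.06 in Col. In UGT84, with 5 genes, 1 was higher and 1 lower in vte2 and 1 was higher in Col (medians 0.02 in both genotypes). UGT72 had 1 gene higher and 1 lower of 4 in vte2 and 2 higher and 1 lower in Col, with medians of 0.05 in vte2 and 0.23 in Col, and UGT74 had 1 of 3 higher in vte2 and none in Col, with medians of 0.08 in vte2 and -0.08 in Col. No subgroup was tested against the others.

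**Figure D2:**
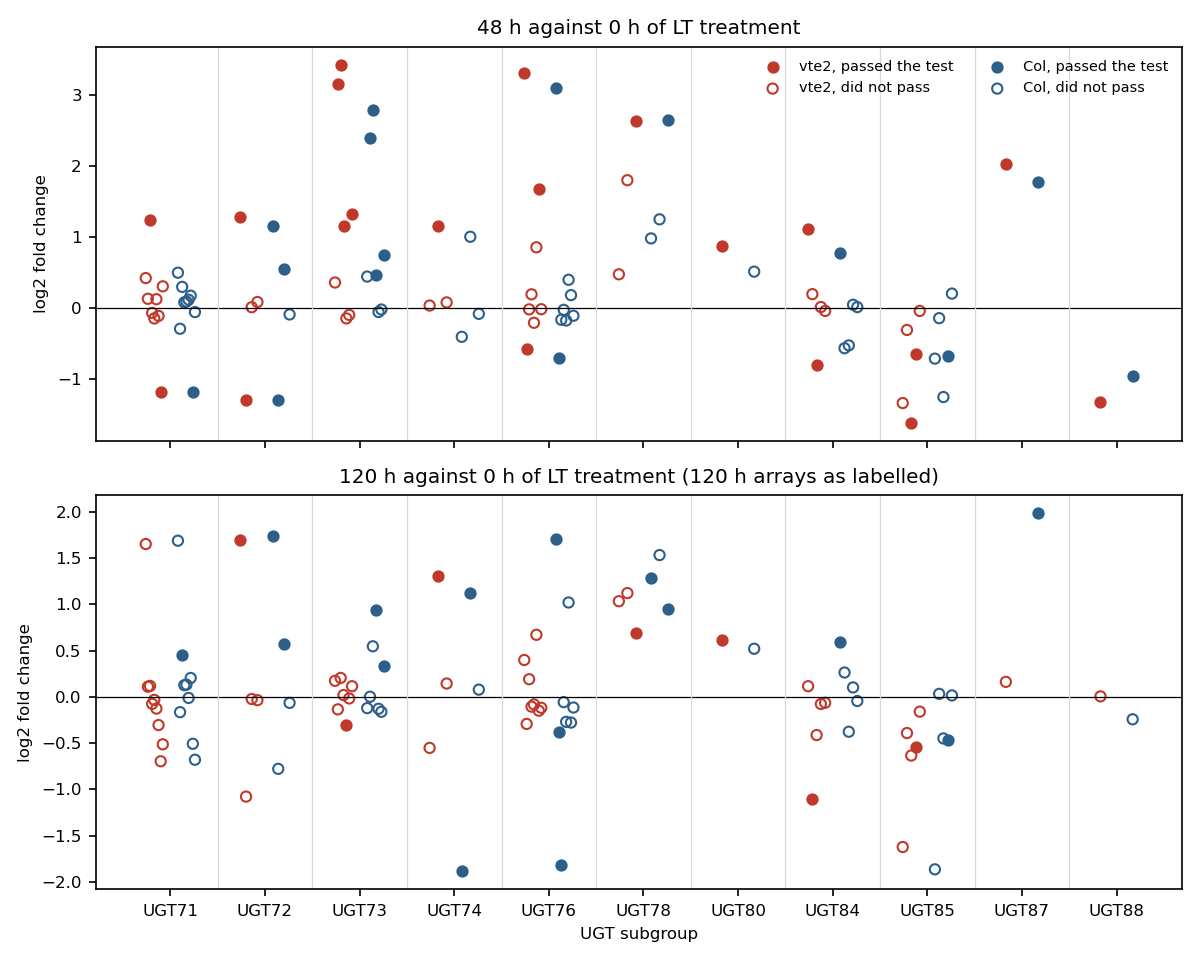
Each point is the log2 change of a UGT gene against 0 h (y axis), placed by subgroup (x axis), at 48 h above and at 120 h below, with vte2 in red left of Col in blue and filled points for changes that passed the test. At 48 h, the points above 2 belong to UGT73, UGT76, UGT78 and UGT87, and at 120 h no point reaches 2.

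By 120 h, fewer genes differed from 0 h in arrays labelled vte2, where 4 were higher and 3 lower (background 23.5%, with 14.0% higher and 9.53% lower), than in arrays labelled Col, where 11 were higher and 4 lower (background 29.0%, with 16.3% higher and 12.7% lower). UGT72B3, UGT74D1 and UGT78D3 were higher and UGT85A5 was lower under both labels. These 4 genes were 57.1% of the 7 that passed under the vte2 label and 26.7% of the 15 under the Col label. The 48 h and 120 h comparisons share their 0 h arrays. Between 48 h and 120 h, 11 genes fell and 1 was higher under the vte2 label (background 24.5%, with 11.0% lower and 13.5% higher), and 6 fell and 1 was higher under the Col label (background 17.5%, with 7.99% lower and 9.48% higher). UGT73B4, UGT73B5, UGT73D1 and UGT78D3 fell under both labels. With the genotype labels of the 120 h arrays exchanged, 17 genes differed from 0 h in vte2 and 8 in Col. The same 120 h arrays were then set against 0 h groups that differed in 0.00877% of all probe sets, or 4.57% without both replicate 3 arrays at 0 h. The order of the 2 counts was thus likely to turn round under either labelling, so that it tells nothing about the labels. The share of all probe sets in the exchanged fit is not given here.

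UGT73B4 and UGT73B5, neighbouring genes linked to responses to pathogens and reactive oxygen, had 2 of the 3 largest increases at 48 h in vte2 and returned close to their starting level by 120 h. For UGT73B4, the values were 3.97, 3.56 and 3.68 in vte2 and 3.72, 3.86 and 3.42 in Col at 0 h, 7.06, 6.78 and 6.81 in vte2 and 6.42, 4.72 and 7.01 in Col at 48 h, and 3.61, 3.68 and 3.52 in arrays labelled vte2 and 3.65, 3.80 and 3.54 in arrays labelled Col at 120 h. The 48 h arrays did not overlap with those of the other times, and replicate 2 of Col at 48 h was well below its group. The change at 48 h was 3.15 ± 0.38 (adjusted p = 1.01e-05) in vte2 and 2.39 ± 0.38 (adjusted p = 0.000172) in Col, as log2 change ± standard error. For UGT73B5, the values were 3.76, 3.53 and 3.42 in vte2 and 3.53, 3.79 and 3.94 in Col at 0 h, 6.99, 7.18 and 6.81 in vte2 and 6.88, 5.46 and 7.30 in Col at 48 h, and 3.79, 3.90 and 3.64 in arrays labelled vte2 and 4.10, 4.56 and 4.25 in arrays labelled Col at 120 h, with the same Col replicate low at 48 h and arrays labelled Col slightly higher than the rest at 120 h. Its change at 48 h was 3.42 ± 0.32 (adjusted p = 8.38e-07) in vte2 and 2.79 ± 0.32 (adjusted p = 7.95e-06) in Col. Between 48 h and 120 h, UGT73B4 fell by 3.28 under the vte2 label and by 2.38 under the Col label, and UGT73B5 fell by 3.22 and 2.24 (adjusted p = 1.74e-05, 0.000556, 5.47e-06 and 0.000257). Without replicate 2 of Col at 48 h, the difference between vte2 and Col at 48 h was 0.17 for UGT73B4 and -0.10 for UGT73B5, against 0.83 and 0.45 with it, and none of these passed.

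In the same subgroup, UGT73C1, which can add glucose to cytokinins and to foreign compounds such as trinitrotoluene, and UGT73D1 were also higher at 48 h. For UGT73C1, the values were 3.28, 3.56 and 3.15 in vte2 and 3.65, 3.28 and 3.19 in Col at 0 h, 4.59, 4.58 and 4.32 in vte2 and 3.71, 3.99 and 3.81 in Col at 48 h, and 3.44, 3.36 and 3.26 in arrays labelled vte2 and 4.07, 4.25 and 4.62 in arrays labelled Col at 120 h. At 48 h every vte2 array was above every Col array, and at 120 h every array labelled Col was above every array labelled vte2. The 48 h difference between vte2 and Col was 0.66 ± 0.16 (adjusted p = 0.146) and did not pass. How often arrays separate in this way over all probe sets is not given here. The change at 48 h was 1.16 ± 0.16 (adjusted p = 3.23e-05) in vte2 and 0.47 ± 0.16 (adjusted p = 0.0347) in Col. The difference between the labels at 120 h was -0.96 ± 0.16 (adjusted p = 0.00184). The Col change at 48 h no longer passed on leaving out any of the 6 arrays compared but the 0 h Col array 1 or the 48 h Col array 1, at 0.37 to 0.48 (adjusted p = 0.071 to 0.124), and was 0.37 (adjusted p = 0.0926) without both replicate 3 arrays at 0 h. For UGT73D1, the values were 3.42, 3.52 and 3.39 in vte2 and 3.43, 3.60 and 3.73 in Col at 0 h, 4.71, 4.80 and 4.81 in vte2 and 4.53, 4.24 and 4.25 in Col at 48 h, and 3.54, 3.63 and 3.51 in arrays labelled vte2 and 3.71, 4.11 and 3.95 in arrays labelled Col at 120 h, again with all vte2 arrays above all Col arrays at 48 h. Here too the 48 h difference between vte2 and Col did not pass, at 0.43 ± 0.11 (adjusted p = 0.218). UGT73D1 changed by 1.33 ± 0.11 (adjusted p = 3.34e-07) at 48 h in vte2 and by 0.75 ± 0.11 (adjusted p = 0.000106) in Col. At 120 h the arrays overlapped with those at 0 h under both labels. Under the Col label the 120 h change was 0.34 ± 0.11 (adjusted p = 0.038), and it no longer passed on leaving out any of the 6 arrays compared but the 0 h Col array 3 or the 120 h Col array 1, at 0.24 to 0.34 (adjusted p = 0.0718 to 0.179). It changed between 48 h and 120 h by -1.21 ± 0.11 (adjusted p = 3.16e-06) under the vte2 label and -0.42 ± 0.11 (adjusted p = 0.0195) under the Col label, and the Col value no longer passed without the 48 h Col array 1 or the 120 h Col array 1, at -0.32 to -0.31 (adjusted p = 0.102 to 0.113). UGT73B1, UGT73C2 and UGT73C7 had changes between -0.14 and 0.44 at 48 h, and none passed there.

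The UGT78 genes decorate flavonols and anthocyanins: UGT78D1 adds rhamnose, UGT78D2 glucose and UGT78D3 arabinose. UGT78D3 was the only one of the 3 that passed at 48 h. Its values were 3.99, 3.37 and 3.53 in vte2 and 4.13, 3.57 and 3.88 in Col at 0 h, 6.59, 6.35 and 5.86 in vte2 and 6.44, 6.90 and 6.19 in Col at 48 h, and 4.16, 4.65 and 4.15 in arrays labelled vte2 and 4.99, 4.69 and 4.74 in arrays labelled Col at 120 h, so that the 48 h arrays were separate from all others in both genotypes. It changed at 48 h by 2.63 ± 0.23 (adjusted p = 4.05e-07) in vte2 and by 2.65 ± 0.23 (adjusted p = 4.68e-07) in Col, and at 120 h by 0.69 ± 0.23 (adjusted p = 0.0427) under the vte2 label and 0.95 ± 0.23 (adjusted p = 0.00564) under the Col label. The 120 h change under the vte2 label no longer passed on leaving out any of the 6 arrays compared but the 0 h vte2 array 1, at 0.53 to 0.77 (adjusted p = 0.0583 to 0.179), and was 0.64 (adjusted p = 0.0741) without both replicate 3 arrays at 0 h. For UGT78D1, the values were 8.29, 7.53 and 9.51 in vte2 and 7.66, 7.69 and 9.08 in Col at 0 h, 9.04, 8.98 and 8.75 in vte2 and 9.10, 9.56 and 8.71 in Col at 48 h, and 9.53, 9.62 and 9.29 in arrays labelled vte2 and 9.44, 9.36 and 9.48 in arrays labelled Col at 120 h. At 0 h, replicate 3 of each genotype lay among the LT arrays and replicates 1 and 2 lay below them. UGT78D1 changed at 120 h by 1.04 ± 0.42 (adjusted p = 0.0931) in arrays labelled vte2 and by 1.29 ± 0.42 (adjusted p = 0.0314) in arrays labelled Col, and the Col value no longer passed on leaving out any of the 6 arrays compared but the 0 h Col array 3, at 1.04 to 1.32 (adjusted p = 0.0687 to 0.128). For UGT78D2, the values were 7.41, 6.64 and 10.90 in vte2 and 7.34, 7.54 and 11.17 in Col at 0 h, 10.25, 10.07 and 10.03 in vte2 and 9.82, 10.18 and 9.79 in Col at 48 h, and 9.38, 9.62 and 9.33 in arrays labelled vte2 and 10.35, 10.18 and 10.12 in arrays labelled Col at 120 h. Its replicate 3 arrays at 0 h were the highest of all 18 and its replicates 1 and 2 at 0 h the lowest. UGT78D2 passed no test, with 48 h changes of 1.80 in vte2 and 1.25 in Col and standard errors of 0.95. Without both replicate 3 arrays at 0 h, it changed at 48 h by 3.09 (adjusted p = 7.73e-09) in vte2 and 2.49 (adjusted p = 9.02e-08) in Col, and at 120 h by 2.41 and 2.78, and UGT78D1 then passed in all 4 of these comparisons, at 1.01 to 1.75.

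UGT88A1, which accepts flavonols in vitro, went the other way and was lower at 48 h. Its values were 10.34, 10.44 and 8.95 in vte2 and 10.50, 10.39 and 9.17 in Col at 0 h, 8.62, 8.58 and 8.58 in vte2 and 9.09, 9.24 and 8.89 in Col at 48 h, and 9.86, 9.81 and 10.08 in arrays labelled vte2 and 9.77, 9.77 and 9.80 in arrays labelled Col at 120 h. The vte2 arrays at 48 h were below every other array, while the Col arrays at 48 h overlapped with replicate 3 of Col at 0 h. The 48 h difference between vte2 and Col was -0.48 ± 0.35 (adjusted p = 0.999) and did not pass. The change at 48 h was -1.32 ± 0.35 (adjusted p = 0.00772) in vte2 and -0.95 ± 0.35 (adjusted p = 0.0494) in Col. Between 48 h and 120 h it was higher by 1.33 ± 0.35 (adjusted p = 0.0105) under the vte2 label. The Col value at 48 h no longer passed on leaving out any of the 6 arrays compared but the 0 h Col array 3, at -1.03 to -0.71 (adjusted p = 0.0704 to 0.192), but it was -1.37 (adjusted p = 1.97e-07) without replicate 3 at 0 h. Among the synonym genes, UF3GT, which adds xylose to anthocyanins, changed at 48 h by 3.90 ± 0.26 (adjusted p = 2.97e-08) in vte2 and 4.45 ± 0.26 (adjusted p = 1.09e-08) in Col, and DFR, the dihydroflavonol reductase upstream of it, by 5.64 in vte2 and 5.32 in Col.

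**Figure D3:**
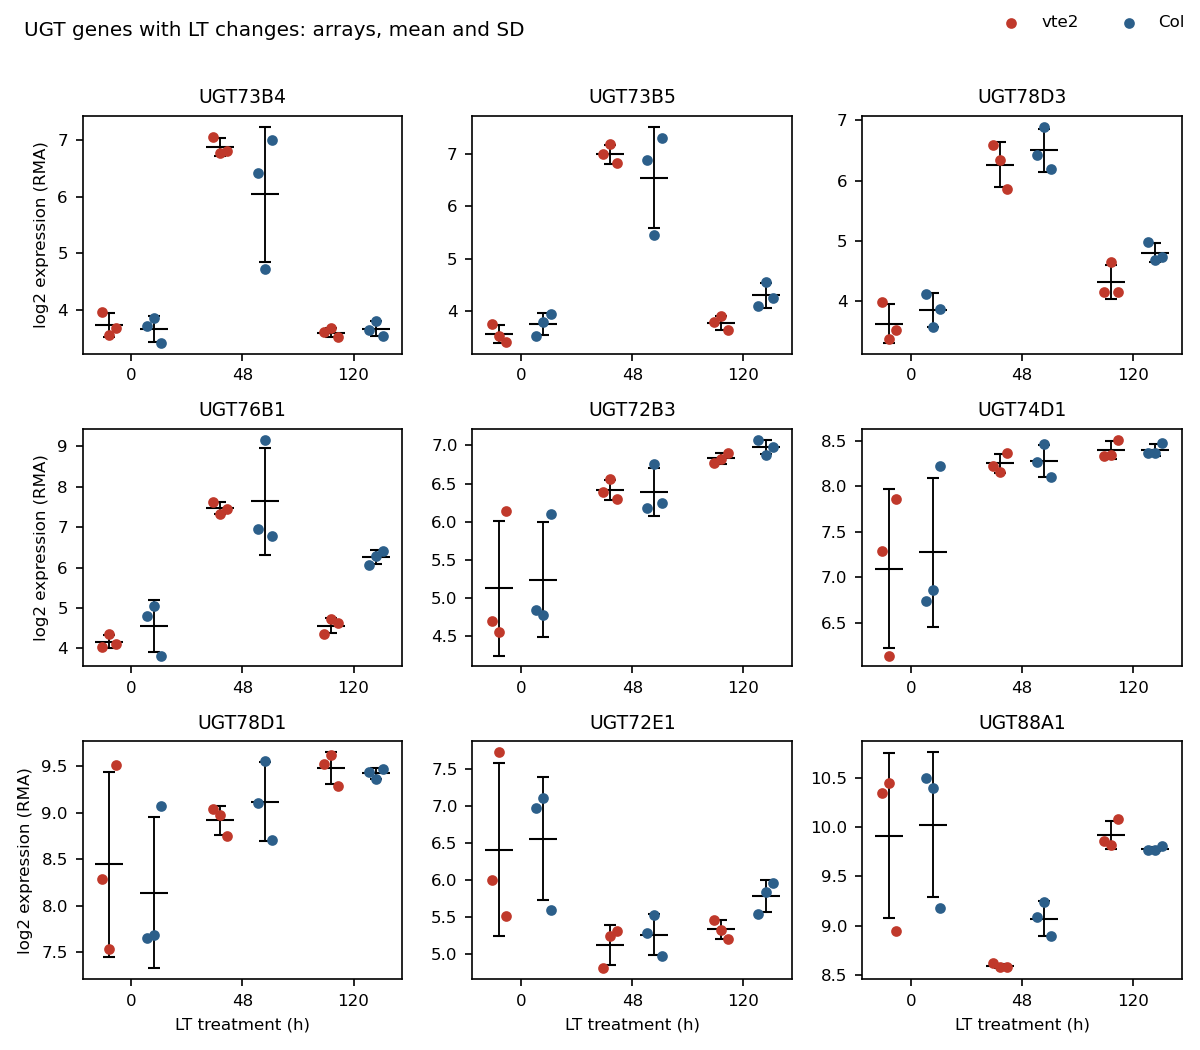
Points are the log2 values of the 3 arrays of each group at 0, 48 and 120 h of LT treatment, with vte2 (red) left of Col (blue), horizontal lines for means and bars for the standard deviation (n = 3), and the 120 h arrays as labelled. UGT73B4, UGT73B5 and UGT78D3 are high at 48 h, UGT76B1 holds 1 Col array at 9.17, and UGT72B3, UGT74D1, UGT78D1, UGT72E1 and UGT88A1 have widely spread arrays at 0 h.

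UGT76B1, which glucosylates isoleucic acid, salicylic acid and N-hydroxypipecolic acid in immune signalling, had the largest increase at 48 h in Col with all arrays. This rank was lost without replicate 2 of Col at 48 h, the array in which UGT73B4 and UGT73B5 were low. Its values were 4.02, 4.35 and 4.11 in vte2 and 4.79, 5.03 and 3.82 in Col at 0 h, 7.63, 7.33 and 7.45 in vte2 and 6.96, 9.17 and 6.79 in Col at 48 h, and 4.34, 4.71 and 4.63 in arrays labelled vte2 and 6.07, 6.29 and 6.41 in arrays labelled Col at 120 h. All 48 h arrays were above all 0 h arrays, and replicate 2 of Col at 48 h was the highest of all. UGT76B1 changed at 48 h by 3.31 ± 0.46 (adjusted p = 3.99e-05) in vte2 and 3.09 ± 0.46 (adjusted p = 8.89e-05) in Col, and the Col value was 2.33 (adjusted p = 1.26e-05) without replicate 2. At 120 h, the arrays labelled vte2 overlapped with 0 h and those labelled Col did not, and the difference between the labels was -1.70 ± 0.46 (adjusted p = 0.0396). That difference no longer passed on leaving out any of the 6 arrays compared, at -1.79 to -1.59 (adjusted p = 0.0799 to 0.143), though the arrays of the 2 labels did not overlap. Its standard error is pooled over all 6 groups. The standard deviation was 1.33 in Col at 48 h, against 0.20 in arrays labelled vte2 and 0.17 in arrays labelled Col at 120 h. The difference of the late changes between the labels was -1.53 ± 0.65 (adjusted p = 0.234), and it was -2.29 (adjusted p = 0.00197) without replicate 2 of Col at 48 h. The other members known to act on salicylic or dihydroxybenzoic acids, UGT74F1 and UGT76D1, had 48 h changes of -0.08 to 0.20 in the 2 genotypes, and neither passed in any comparison.

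Among the genes linked to abscisic acid, UGT71B6, which makes its glucose ester, was the only UGT gene to differ between vte2 and Col at 48 h in this fit (background 0.338%, with 0.215% higher and 0.123% lower; 7 of the 47 genes had an unadjusted p under 0.05). The values of UGT71B6 were 3.57, 3.99 and 3.68 in vte2 and 3.80, 3.94 and 3.59 in Col at 0 h, 5.10, 5.08 and 4.79 in vte2 and 4.34, 3.80 and 4.09 in Col at 48 h, and 3.84, 3.89 and 3.87 in arrays labelled vte2 and 4.32, 4.27 and 4.10 in arrays labelled Col at 120 h. At 48 h the 3 vte2 arrays were above the 3 Col arrays, and the Col arrays overlapped with those at 0 h. The difference at 48 h was 0.91 ± 0.15 (adjusted p = 0.013). The change at 48 h was 1.25 ± 0.15 (adjusted p = 7.59e-06) in vte2 and 0.30 ± 0.15 (adjusted p = 0.139) in Col, and the test of the difference between these changes gave 0.95 ± 0.21 (adjusted p = 0.201). The 48 h difference no longer passed without the 48 h Col array 2, the 48 h vte2 array 1 or the 48 h vte2 array 2, at 0.77 to 0.87 (adjusted p = 0.0668 to 0.0916), nor in a fit to the arrays compared alone, at an adjusted p of 0.0596. Its small 120 h change under the Col label, 0.45 ± 0.15 (adjusted p = 0.0305), was lost on leaving out any of the 6 arrays compared but the 0 h Col array 2 or the 120 h Col array 3, at 0.36 to 0.47 (adjusted p = 0.0599 to 0.104), and was 0.36 (adjusted p = 0.0954) without both replicate 3 arrays at 0 h. In the same fit the difference between its 48 h changes was 1.01 (adjusted p = 0.025). UGT71C5, which also acts on abscisic acid, had 48 h changes of 0.31 in vte2 and -0.05 in Col and passed in no comparison.

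UGT76E12 had the largest difference between vte2 and Col at 48 h of the 47 genes, but it did not pass. It was named after its values were seen. Its values at 48 h were 4.95, 5.37 and 5.30 in vte2 and 3.67, 4.49 and 4.32 in Col, with no overlap, and the difference was 1.04 ± 0.30 (adjusted p = 0.274). At 0 h, where the arrays of the genotypes overlapped, they were 3.42, 3.92 and 3.26 in vte2 and 4.38, 4.44 and 3.12 in Col. In vte2 the 48 h change was 1.67 ± 0.30 (adjusted p = 0.000362), and in Col it was 0.18 ± 0.30 (adjusted p = 0.686), or -0.25 (adjusted p = 0.39) without both replicate 3 arrays at 0 h. Its neighbour UGT76E11 changed by 0.86 in vte2 and 0.40 in Col, and neither passed with all arrays.

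UGT76C1 and UGT76C2, neighbouring genes whose enzymes add glucose to the ring nitrogen of cytokinins, followed different courses. For UGT76C1, the values were 5.85, 6.06 and 6.08 in vte2 and 5.93, 5.97 and 6.03 in Col at 0 h, 5.36, 5.44 and 5.49 in vte2 and 5.45, 5.35 and 5.02 in Col at 48 h, and 5.83, 5.56 and 5.72 in arrays labelled vte2 and 5.53, 5.57 and 5.68 in arrays labelled Col at 120 h. The 48 h arrays were below the 0 h arrays in both genotypes. UGT76C1 changed at 48 h by -0.57 ± 0.11 (adjusted p = 0.000978) in vte2 and -0.70 ± 0.11 (adjusted p = 0.000176) in Col, and at 120 h under the Col label by -0.38 ± 0.11 (adjusted p = 0.0195), a value lost without the 0 h Col array 3, the 120 h Col array 1 or the 120 h Col array 2, at -0.37 to -0.35 (adjusted p = 0.0509 to 0.0652). For UGT76C2, the values were 7.03, 7.55 and 5.64 in vte2 and 7.83, 7.69 and 6.70 in Col at 0 h, 6.59, 6.77 and 6.81 in vte2 and 7.31, 7.04 and 7.38 in Col at 48 h, and 7.19, 6.55 and 7.05 in arrays labelled vte2 and 5.74, 5.61 and 5.41 in arrays labelled Col at 120 h. The arrays labelled Col at 120 h were lower than all others but for replicate 3 of vte2 at 0 h. The difference between the labels at 120 h was 1.35 ± 0.38 (adjusted p = 0.0471), the only one of the 5 that was higher under the vte2 label, and it no longer passed on leaving out any of the 6 arrays compared, at 1.22 to 1.54 (adjusted p = 0.0566 to 0.177). The pooled standard error again takes in other groups, with standard deviations of 0.99 in vte2 and 0.62 in Col at 0 h. At 120 h they were 0.34 in arrays labelled vte2 and 0.16 in arrays labelled Col. UGT76C2 changed by 0.19 ± 0.38 (adjusted p = 0.783) at 120 h under the vte2 label and by -1.82 ± 0.38 (adjusted p = 0.00187) under the Col label. The test of the difference between these gave 2.01 ± 0.54 (adjusted p = 0.0676), and 1.82 (adjusted p = 0.000942) without both replicate 3 arrays at 0 h. The 120 h change itself was then -0.36 (adjusted p = 0.17) under the vte2 label, where the sign turned, and -2.18 (adjusted p = 5.16e-07) under the Col label.

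UGT74D1, which glucosylates auxins, was higher during LT treatment with values of 7.29, 6.14 and 7.86 in vte2 and 6.75, 6.86 and 8.22 in Col at 0 h, 8.23, 8.16 and 8.37 in vte2 and 8.27, 8.47 and 8.11 in Col at 48 h, and 8.34, 8.35 and 8.51 in arrays labelled vte2 and 8.37, 8.36 and 8.47 in arrays labelled Col at 120 h. Replicate 3 of Col at 0 h lay within the range of the LT arrays, and the remaining 0 h arrays lay below it. UGT74D1 changed at 48 h by 1.16 ± 0.37 (adjusted p = 0.0252) in vte2 and 1.00 ± 0.37 (adjusted p = 0.0525) in Col, and at 120 h by 1.30 ± 0.37 (adjusted p = 0.019) under the vte2 label and 1.12 ± 0.37 (adjusted p = 0.0343) under the Col label. Without both replicate 3 arrays at 0 h the 48 h changes were 1.54 (adjusted p = 5.64e-05) in vte2 and 1.48 (adjusted p = 9.48e-05) in Col. The vte2 change at 48 h no longer passed on leaving out any of the 6 arrays compared but the 0 h vte2 array 1 or the 0 h vte2 array 3, at 0.68 to 1.20 (adjusted p = 0.0524 to 0.129). Its 120 h change was lost under the vte2 label without the 0 h vte2 array 2 or the 120 h vte2 array 3, at 0.82 to 1.25 (adjusted p = 0.063 to 0.0859), and under the Col label on leaving out any of the 6 arrays compared but the 0 h Col array 3, at 0.86 to 1.14 (adjusted p = 0.0724 to 0.15). UGT84B1, whose enzyme makes an auxin glucose ester, stayed within -0.14 to 0.10 in the comparisons between vte2 and Col and with 0 h, and passed none.

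UGT74B1, the S-glucosyltransferase of glucosinolate synthesis, was lower at 120 h than at 0 h in arrays labelled Col. Its values were 7.48, 7.25 and 9.28 in vte2 and 8.47, 8.98 and 9.20 in Col at 0 h, 7.96, 7.88 and 8.27 in vte2 and 8.43, 8.17 and 8.83 in Col at 48 h, and 7.29, 7.78 and 7.29 in arrays labelled vte2 and 6.78, 7.11 and 7.10 in arrays labelled Col at 120 h. The arrays labelled Col at 120 h were lower than every other array, and replicate 3 of vte2 at 0 h was the highest of all. UGT74B1 changed at 120 h by -0.55 ± 0.39 (adjusted p = 0.364) under the vte2 label and by -1.88 ± 0.39 (adjusted p = 0.0018) under the Col label. Between 48 h and 120 h it changed by -0.59 ± 0.39 (adjusted p = 0.347) under the vte2 label and by -1.48 ± 0.39 (adjusted p = 0.0157) under the Col label, and the Col value was lost without the 48 h Col array 3 or the 120 h Col array 1, at -1.37 to -1.31 (adjusted p = 0.0627 to 0.0749). With all arrays, its 120 h changes differed between the labels by 1.33 (adjusted p = 0.276), and vte2 and Col differed at 0 h by -0.88 ± 0.39 (adjusted p = 0.556). Neither passed. Without both replicate 3 arrays at 0 h, these values were 1.81 (adjusted p = 0.00227) and -1.36 (adjusted p = 0.00454). In that fit 7.71% and 4.57% of all probe sets passed in these 2 comparisons. The 120 h change of UGT74B1 was then 0.09 (adjusted p = 0.808) under the vte2 label, where the sign turned, and -1.73 (adjusted p = 1.59e-05) under the Col label. Of the other glucosinolate genes listed, GSTU20 and BCAT4 were matched. GSTU20 changed at 120 h by 0.89 ± 0.20 (adjusted p = 0.00477) under the vte2 label and -1.70 ± 0.20 (adjusted p = 1.76e-05) under the Col label, and BCAT4 by -0.18 ± 0.31 (adjusted p = 0.753) and -3.13 ± 0.31 (adjusted p = 3.08e-06).

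The UGT72E genes glucosylate lignin precursors and the UGT84A genes make glucose esters of hydroxycinnamic acids such as sinapic acid. For UGT72E1, the values were 6.01, 7.73 and 5.51 in vte2 and 6.97, 7.11 and 5.61 in Col at 0 h, 4.81, 5.25 and 5.32 in vte2 and 5.29, 5.53 and 4.98 in Col at 48 h, and 5.47, 5.34 and 5.21 in arrays labelled vte2 and 5.55, 5.84 and 5.97 in arrays labelled Col at 120 h. All 48 h arrays lay below all 0 h arrays of their genotype. UGT72E1 changed at 48 h by -1.29 ± 0.46 (adjusted p = 0.0403) in vte2 and -1.30 ± 0.46 (adjusted p = 0.0417) in Col. The vte2 value was lost on leaving out any of the 6 arrays compared but the 0 h vte2 array 1 or the 0 h vte2 array 3, at -1.39 to -0.63 (adjusted p = 0.0632 to 0.196), and the Col value on leaving out any of the 6 arrays compared but the 0 h Col array 3, at -1.43 to -1.02 (adjusted p = 0.0562 to 0.145). Without both replicate 3 arrays at 0 h they were -1.74 (adjusted p = 0.000739) and -1.77 (adjusted p = 0.000723). UGT72E2 changed at 48 h by 0.01 in vte2, which did not pass, and by 0.54 ± 0.13 (adjusted p = 0.00409) in Col. At 120 h it changed by -0.02 under the vte2 label, which did not pass, and by 0.57 ± 0.13 (adjusted p = 0.0034) under the Col label. Its group means were 4.69 in vte2 and 4.29 in Col at 0 h, and 4.70 in vte2 and 4.83 in Col at 48 h. The difference at 0 h was 0.40 ± 0.13 (adjusted p = 0.387). The changes of UGT72E2 differed by -0.53 at 48 h and by -0.59 at 120 h, vte2 minus Col as labelled. None of these differences passed. UGT72E3 passed in no comparison. UGT84A1 was higher at 48 h by 1.11 in vte2 and 0.78 in Col (adjusted p = 0.000452 and 0.00792), and UGT84A4, of the same run of neighbouring genes, fell in vte2, with a change of -0.80 (adjusted p = 0.0191) and changed by -0.52 in Col, or -0.20 without both replicate 3 arrays at 0 h, which did not pass.

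UGT84A3, which stands between UGT84A1 and UGT84A4, had the largest difference between the 120 h labels. Its values were 5.53, 6.19 and 6.19 in vte2 and 6.84, 6.83 and 5.65 in Col at 0 h, 6.04, 6.36 and 6.10 in vte2 and 5.82, 6.04 and 5.77 in Col at 48 h, and 5.05, 4.69 and 4.84 in arrays labelled vte2 and 6.84, 6.65 and 6.63 in arrays labelled Col at 120 h. At 120 h, the arrays labelled vte2 were lower than every other array and those labelled Col were level with replicates 1 and 2 of Col at 0 h. The difference at 120 h was -1.84 ± 0.26 (adjusted p = 0.000621). Under the vte2 label UGT84A3 changed by -1.11 ± 0.26 (adjusted p = 0.00577) against 0 h and by -1.31 ± 0.26 (adjusted p = 0.00163) against 48 h. Under the Col label the change between 48 h and 120 h was 0.83 ± 0.26 (adjusted p = 0.041), which no longer passed on leaving out any of the 6 arrays compared, at 0.76 to 0.91 (adjusted p = 0.0517 to 0.13). Without both replicate 3 arrays at 0 h, the genotypes differed at 0 h by -0.98 (adjusted p = 0.00986), vte2 minus Col, and its 48 h change differed between vte2 and Col by 1.27 (adjusted p = 0.012), against 0.76 ± 0.37 (adjusted p = 0.687) with them. In that fit 4.57% of all probe sets passed between the genotypes at 0 h and 3.35% for the difference of the 48 h changes.

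UGT87A2, a gene that influences flowering time, was higher at 48 h in both genotypes and parted by label at 120 h. Its values were 7.18, 7.53 and 8.14 in vte2 and 7.59, 7.46 and 7.32 in Col at 0 h, 9.69, 9.63 and 9.62 in vte2 and 9.41, 9.08 and 9.20 in Col at 48 h, and 7.61, 8.14 and 7.60 in arrays labelled vte2 and 9.49, 9.47 and 9.38 in arrays labelled Col at 120 h. All 48 h arrays were above all 0 h arrays. At 120 h the arrays labelled Col stayed as high as at 48 h, and those labelled vte2 overlapped with 0 h. UGT87A2 changed at 48 h by 2.03 ± 0.20 (adjusted p = 9.93e-07) in vte2 and 1.77 ± 0.20 (adjusted p = 4.77e-06) in Col. At 120 h it changed by 0.16 ± 0.20 (adjusted p = 0.618) under the vte2 label and by 1.99 ± 0.20 (adjusted p = 2.64e-06) under the Col label, and the labels differed by -1.67 ± 0.20 (adjusted p = 0.000142). The 120 h change under the vte2 label was 0.42 (adjusted p = 0.0492) without both replicate 3 arrays at 0 h. No fit that left out 1 array ended these calls of UGT87A2 between the labels and at 48 h. UGT80B1, a sterol glucosyltransferase, was higher in vte2 at 48 h by 0.87 ± 0.19 (adjusted p = 0.00205) and changed by 0.51 ± 0.19 (adjusted p = 0.0515) in Col, while SGT, a second sterol glucosyltransferase, had changes of 0.16 and -0.04 that did not pass.

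For 3 further genes with large LT changes no role is given here. UGT72B3 had values of 4.69, 4.55 and 6.14 in vte2 and 4.85, 4.77 and 6.11 in Col at 0 h, 6.39, 6.55 and 6.29 in vte2 and 6.18, 6.76 and 6.24 in Col at 48 h, and 6.77, 6.82 and 6.90 in arrays labelled vte2 and 7.08, 6.88 and 6.98 in arrays labelled Col at 120 h. The LT arrays were all above the 0 h arrays, and replicate 3 at 0 h was far above replicates 1 and 2 in each genotype. UGT72B3 changed by 1.28 ± 0.37 (adjusted p = 0.0135) in vte2 and 1.15 ± 0.37 (adjusted p = 0.0271) in Col at 48 h, and by 1.70 ± 0.37 (adjusted p = 0.0033) under the vte2 label and 1.74 ± 0.37 (adjusted p = 0.00224) under the Col label at 120 h. The vte2 value at 48 h was lost without the 0 h vte2 array 1 or the 0 h vte2 array 2, at 0.99 to 1.07 (adjusted p = 0.0615 to 0.0674), and the Col value without the 0 h Col array 1, the 0 h Col array 2 or the 48 h Col array 2, at 0.92 to 0.97 (adjusted p = 0.103 to 0.107). They were 1.79 in vte2 and 1.58 in Col without both replicate 3 arrays at 0 h. UGT71C4 had values of 8.15, 8.57 and 9.11 in vte2 and 8.10, 8.27 and 9.40 in Col at 0 h, 7.44, 7.33 and 7.51 in vte2 and 7.22, 7.69 and 7.32 in Col at 48 h, and 7.86, 7.98 and 7.90 in arrays labelled vte2 and 8.05, 8.10 and 8.10 in arrays labelled Col at 120 h, with all 48 h arrays below all 0 h arrays, and it changed at 48 h by -1.18 ± 0.28 (adjusted p = 0.00352) in vte2 and -1.18 ± 0.28 (adjusted p = 0.00392) in Col. These changes were -0.93 (adjusted p = 8.78e-05) and -0.77 (adjusted p = 0.000519) without both replicate 3 arrays at 0 h, which were the highest 0 h arrays. UGT85A5 had values of 4.06, 4.2 and 3.75 in vte2 and 4.29, 4.02 and 3.59 in Col at 0 h, 3.35, 3.51 and 3.20 in vte2 and 3.44, 3.20 and 3.25 in Col at 48 h, and 3.37, 3.53 and 3.48 in arrays labelled vte2 and 3.61, 3.40 and 3.48 in arrays labelled Col at 120 h. It changed at 48 h by -0.65 ± 0.16 (adjusted p = 0.00462) in vte2 and -0.67 ± 0.16 (adjusted p = 0.00398) in Col. At 120 h the arrays labelled Col overlapped with replicate 3 of Col at 0 h, and the change was -0.54 ± 0.16 (adjusted p = 0.0213) under the vte2 label and -0.47 ± 0.16 (adjusted p = 0.0372) under the Col label. The vte2 value was lost on leaving out any of the 6 arrays compared but the 0 h vte2 array 3 or the 120 h vte2 array 2, at -0.55 to -0.44 (adjusted p = 0.0535 to 0.0859), and the Col value on leaving out any of the 6 arrays compared but the 0 h Col array 3 or the 120 h Col array 1, at -0.46 to -0.31 (adjusted p = 0.0918 to 0.18).

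Between vte2 and Col, no UGT gene differed before LT treatment, 1 differed at 48 h and 5 differed between the labels at 120 h. At 0 h the background was 0.00877% and 3 of the 47 genes had an unadjusted p under 0.05. At 120 h the background was 6.53%, with 3.44% higher and 3.09% lower. UGT84A3, UGT87A2, UGT76B1 and UGT73C1 were lower and UGT76C2 was higher in arrays labelled vte2 than in arrays labelled Col. UGT84A3, UGT87A2 and UGT73C1 passed in every fit that left out 1 of the 6 arrays compared. Over the 47 genes, 34 (72.3%) had opposite signs at 48 h and 120 h, with a correlation of -0.361 across genes, which are not independent replicates. Over all probe sets, 60.8% had opposite signs, with a correlation of -0.508. The 48 h and 120 h comparisons use different arrays.

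The change between 0 h and 120 h differed between the labels by -1.82 ± 0.28 (adjusted p = 0.00271) for UGT87A2 and by -0.92 ± 0.22 (adjusted p = 0.046) for UGT73C1. These were 2 of the 47 genes, against a background of 2.27%, with 1.23% higher and 1.04% lower. The value of UGT73C1 no longer passed on leaving out any of the 12 arrays compared but the 0 h vte2 array 3, the 0 h Col array 1 or the 120 h Col array 1, at -0.96 to -0.77 (adjusted p = 0.0556 to 0.125). The change between 48 h and 120 h differed for 5 genes (background 5.91%, with 3.32% higher and 2.59% lower), each with a more negative change under the vte2 label: UGT84A3 by -2.13, UGT87A2 by -2.08, UGT73C1 by -1.61, UGT71B6 by -1.28 and UGT73D1 by -0.79.

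**Figure D4:**
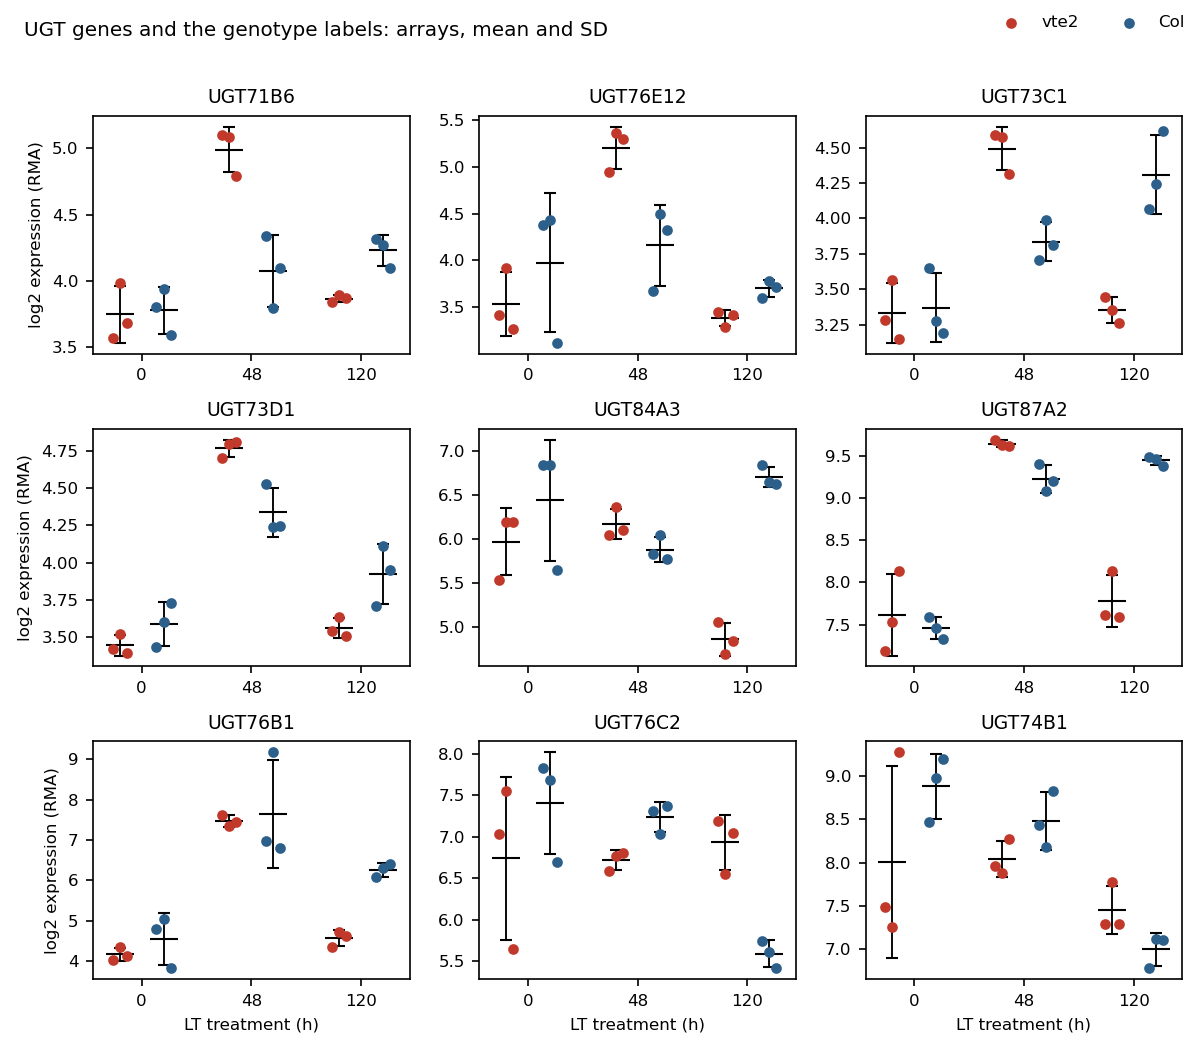
Points are the log2 values of the 3 arrays of each group at 0, 48 and 120 h of LT treatment, with vte2 (red) left of Col (blue), horizontal lines for means and bars for the standard deviation (n = 3), and the 120 h arrays as labelled. At 48 h the vte2 arrays of UGT71B6, UGT76E12, UGT73C1 and UGT73D1 are above the Col arrays, and at 120 h the arrays labelled vte2 of UGT73C1, UGT84A3, UGT87A2 and UGT76B1 are below those labelled Col. Of these 48 h differences, only that of UGT71B6 passed the test.

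The separate position of replicate 3 at 0 h was marked in this family. Its shift from the mean of replicates 1 and 2 exceeded 2-fold in the same direction in both genotypes for 11 of the 47 genes (23.4%), against 6.99% of all probe sets. The shifts of vte2 and Col had a correlation of 0.899 across the 47 genes, which share the same 6 arrays. Of the 11 genes, 6 were higher and 5 lower in replicate 3. UGT78D2 was shifted by 3.87 in vte2 and 3.73 in Col and UGT71B1 by 2.50 and 1.43, and UGT85A2 by -3.37 and -2.57. The others were UGT72B3, UGT74D1, UGT76E11 and UGT78D1, which were higher, and UGT72E1, UGT76C2, UGT85A4 and UGT88A1, which were lower.

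**Figure D5:**
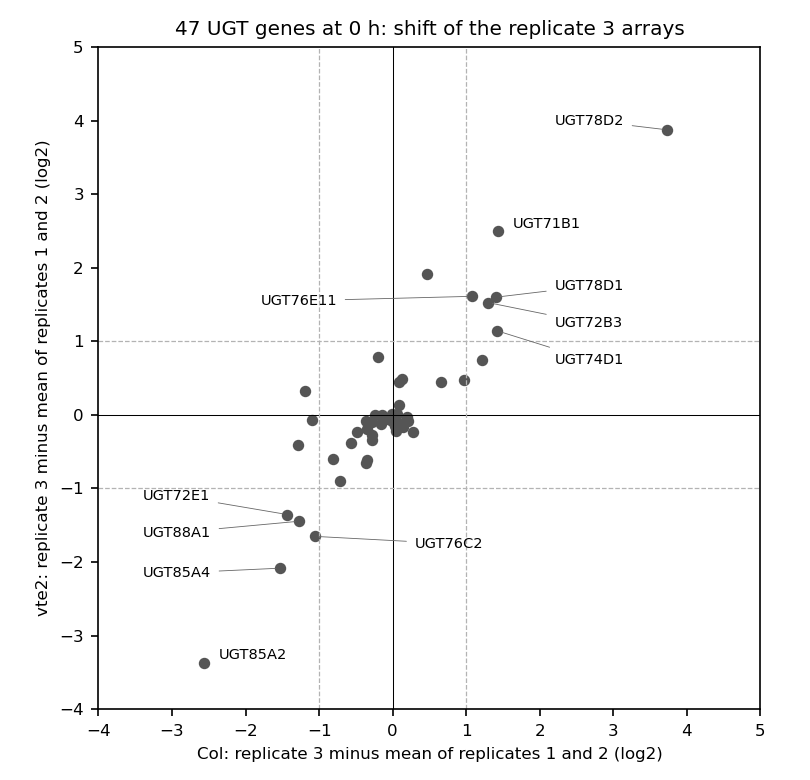
Each point is a UGT gene, placed by the log2 shift of replicate 3 from the mean of replicates 1 and 2 at 0 h in vte2 (y axis) and Col (x axis), with dashed lines at 2-fold. The 11 labelled genes lie beyond 2-fold in the same direction in both genotypes, with UGT78D2 at 3.87 in vte2 and 3.73 in Col and UGT85A2 at -3.37 in vte2 and -2.57 in Col.

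UGT85A2 had the widest group means of the 21 genes that passed in none of the 12 comparisons. Its values were 8.15, 8.35 and 4.88 in vte2 and 7.68, 7.58 and 5.07 in Col at 0 h, 6.05, 5.72 and 5.61 in vte2 and 6.47, 5.58 and 6.15 in Col at 48 h, and 5.56, 5.50 and 5.45 in arrays labelled vte2 and 5.01, 4.73 and 4.99 in arrays labelled Col at 120 h. Replicates 1 and 2 at 0 h were higher than every LT array in both genotypes, and replicate 3 was within the range of the 120 h arrays. Without both replicate 3 arrays at 0 h, UGT85A2 changed at 48 h by -2.46 (adjusted p = 1.45e-07) in vte2 and -1.56 (adjusted p = 1.74e-05) in Col, and at 120 h by -2.75 and -2.72. UGT71B1 and UGT76E11 also passed then, with 120 h changes of 2.49 and 1.21 under the vte2 label and 2.17 and 1.38 under the Col label. At 120 h, 17 of the 47 genes passed under the vte2 label (background 35.7%) and 24 under the Col label (37.8%) in that fit. Of the 21 genes, 16 lay below the median probe set, and the median range of their group means was 0.29. It was 1.39 for the 26 that passed at least once, a contrast that a test of group means brings with it.

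Many UGT genes stand next to each other in the genome, and 31 of the 47 formed 13 runs in which a member was at most 3 genes from the next, on the RefSeq annotation of TAIR10.1. At 48 h, 42.6% of the 47 genes passed in vte2 and 31.9% in Col. How often members of a run would pass together at these rates was not tested, so the counts below only describe the runs. In vte2, all members passed in the same direction in 1 run (UGT73B4 and UGT73B5), members passed in opposite directions in 1 run (UGT84A1 and UGT84A4), some passed in 8 runs and none in 3. In Col, all passed in 1 run, the same one, some passed in 7 and none in 5. In the longest run, of UGT85A2, UGT85A3, UGT85A5 and UGT85A7, only UGT85A5 passed, and it did so in both genotypes. Near-identical neighbours can share signal on short probes, and this was not tested.

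Few genes of the surrounding pathways could be matched by symbol, so that their lists are sparse. Of 27 symbols of flavonoid synthesis 3 genes were matched, of which DFR and UF3GT were higher at 48 h in both genotypes and BAN changed by -0.16 in vte2 and 0.06 in Col. Of 32 symbols of UDP-sugar supply 1 was matched, USP, a UDP-sugar pyrophosphorylase, and it changed at 48 h by -0.80 ± 0.14 (adjusted p = 0.000289) in vte2 and -0.87 ± 0.14 (adjusted p = 0.00016) in Col. Of 24 glucosinolate symbols 2 were matched (above), and of 15 for abscisic acid turnover 1, BGLU33, which passed in no comparison. Of 14 for salicylic acid 2 were matched, of which SAG101, a partner of the immune regulator EDS1, changed by 1.93 ± 0.31 (adjusted p = 0.000142) in vte2 and 2.62 ± 0.31 (adjusted p = 8.85e-06) in Col at 48 h. The other, BSMT1, which makes methyl salicylate, changed by -0.01 in vte2 and by -2.74 ± 0.78 (adjusted p = 0.0132) in Col, where the arrays spread between 3.05 and 3.52 at 48 h and between 3.20 and 7.60 at 0 h, so that they overlapped. None of 19 symbols of flavonoid regulators was matched.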

How the data were processed

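Whole-genome ATH1 arrays (Affymetrix) of leaves were analysed, with 18 arrays in 6 groups of 3 that were taken from the sample labels. The deposited values are log2 expression levels that the authors made from the scanned arrays by robust multi-array averaging with the affy package, using perfect-match probes only and quantile normalization over the 18 arrays. The affy version and a genome build are not given in the sources used here. No count or depth belongs to such values, and their precision is limited by the 3 arrays of each group.

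A linear model of 6 group means was fitted to all 22810 probe sets with limma 3.58.1 in R 4.3.3 and moderated by empirical Bayes, with no filter on low values. Log2 changes, their standard errors and Benjamini-Hochberg adjusted p-values (threshold 0.05, within each of 12 comparisons over all probe sets) were taken from this fit. The fit was tested on simulated data with known changes. Figures were drawn with matplotlib 3.10.9 in Python 3.11.15. Replicates were described as independent pools of plants, and p-values rest on the spread between these pools, pooled for each gene over all 6 groups and not taken from the compared groups alone.

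Gene names came from GEO's annotation of the platform, in which 13513 probe sets named 1 gene, 503 named several and were left out, and 8794 were not listed. Each UGT gene had 1 such probe set. The genes and gene lists were chosen with earlier results of these data known. By rule, 20 UGT genes were given in full: those that passed in a comparison of vte2 with Col or in a test of different changes, the 5 largest rises and the 5 largest falls among those that passed in Col at 48 h and at 120 h, and the highest and lowest probe set. Others are named as members of a biochemical group, an overlap or a run of neighbours.

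The alternatives were a fit to only the arrays compared, the replicate number as a block, cyclic loess or median centring, weights for arrays, leaving out the dimmest 40% of probe sets, a prior that was robust and followed the mean level, adjustment over all comparisons of a kind, the 4 synonym genes added to the family, and leaving out each array in turn. After the data had been seen, leaving out both replicate 3 arrays at 0 h and exchanging the genotype labels at 120 h were added.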

Additional observations from a re-analysis of the deposited data

Results flagged for a closer look

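The following UGT genes had LT changes that differed between vte2 and Col by the test of the difference itself, given as the change in vte2 minus the change in Col (log2, limma, Benjamini-Hochberg adjusted p). Between 0 h and 120 h, the difference was -0.92 ± 0.22 (SE, adjusted p = 0.046) for UGT73C1 and -1.82 ± 0.28 (adjusted p = 0.00271) for UGT87A2. Between 48 h and 120 h, it was -1.28 ± 0.21 (adjusted p = 0.00172) for UGT71B6, the abscisic acid glucosyltransferase, and -2.13 ± 0.37 (adjusted p = 0.0029) for UGT84A3, which acts on hydroxycinnamic acids. For UGT73C1 it was -1.61 ± 0.22 (adjusted p = 0.000563), for UGT73D1 -0.79 ± 0.16 (adjusted p = 0.0079) and for UGT87A2 -2.08 ± 0.28 (adjusted p = 0.000419). All of these rest on the 120 h arrays as labelled.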

How the results depend on the processing

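None of the 76 calls of the 20 genes given in full changed direction under the alternatives run on them, which did not include exchanging the 120 h labels: that turns the sign of each difference between the labels at 120 h by construction. Changes that had not passed could change sign, as UGT74B1 and UGT76C2 did at 120 h under the vte2 label without both replicate 3 arrays at 0 h. In all, 53 of the 76 calls held on leaving out each array in turn. Of these 76 calls, 56 held with only the arrays compared in the fit, 69 with cyclic loess, 71 with median centring, 74 with array weights and 75 with a trended and robust prior. The numbers of UGT genes that passed moved more. Where no share of all probe sets stands beside them, they were not set against the whole array. They are then not read as changes of the family. Before LT treatment, no gene passed between vte2 and Col, against 2 without both replicate 3 arrays at 0 h (4.57% of all probe sets). For vte2 against Col at 48 h (1 gene), the number was 0 with only the arrays compared, 0 without the dimmest 40% of probe sets and 4 with array weights. For the labels at 120 h (5 genes), it was 17 with only the arrays compared, 10 with array weights and 3 with adjustment over all comparisons of a kind. For the 48 h change in Col (15), it was 8 with only the arrays compared, 25 with array weights and 23 without both replicate 3 arrays at 0 h (38.7% of all probe sets). For the 120 h change in arrays labelled vte2 (7), it was 2 with only the arrays compared, 17 without both replicate 3 arrays (35.7% of all probe sets) and 17 with the labels exchanged. For the 120 h change in arrays labelled Col (15), it was 25 with array weights, 24 without both replicate 3 arrays (37.8% of all probe sets) and 8 with the labels exchanged. For the change between 48 h and 120 h, it was 21 with only the arrays compared and 23 with array weights in arrays labelled vte2 (12), and 13 and 20 in arrays labelled Col (7). For the difference of the 48 h changes (0), it was 1 with array weights, 1 with adjustment over all comparisons of a kind and 3 without both replicate 3 arrays at 0 h (3.35% of all probe sets). For the difference of the 120 h changes (2), it was 1 with only the arrays compared, 1 with median centring, 1 without the dimmest probe sets, 4 with array weights and 5 without both replicate 3 arrays at 0 h (7.71% of all probe sets). For the difference of the late changes (5), it was 13 with only the arrays compared, 3 without the dimmest probe sets and 15 with array weights. Fits to fewer arrays estimate the spread from those arrays alone and the filter left 54 of the 76 calls in the test, all of which held. The cause of the other shifts was not tested.

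On leaving out 1 array, the numbers ranged over 0 to 1 for vte2 against Col at 0 h, 0 to 1 at 48 h and 3 to 4 at 120 h. They ranged over 16 to 24 for the 48 h change in vte2 and 12 to 20 in Col, over 2 to 13 for the 120 h change in arrays labelled vte2 and 8 to 21 in arrays labelled Col, and over 12 to 12 for the late change in arrays labelled vte2 and 5 to 7 in arrays labelled Col. For the differences of the changes, they ranged over 0 to 3 at 48 h, 1 to 4 at 120 h and 5 to 6 between 48 h and 120 h. These ranges were not set against the share of all probe sets in the same fits.

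Replicate numbers are shared by the groups, and no label says what a number marks. The deviations of same-numbered vte2 and Col arrays correlated at 0.397 to 0.791 at 0 h, where replicate 3 stood apart in both genotypes and vte2 replicate 2 and Col replicate 1 correlated at 0.496, at 0.054 to 0.302 at 48 h and at -0.151 to 0.0096 at 120 h, so that the numbers were not taken as pairs over the whole design, and not every array correlated best with its own number. With a replicate block, 2 genes passed for vte2 against Col at 48 h, 4 for the difference of the 120 h changes and 10 for that of the late changes (5 without it), and all 76 named calls held. The numbers of genes with a replicate block were not set against the share of all probe sets.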

Other observations

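Of the 4 genes that carry a UGT name only as a synonym, UF3GT was the only one that passed in any comparison. Its difference between the labels at 120 h was -1.54 ± 0.26 (SE, limma, adjusted p = 0.00235), and its 120 h change was smaller under the vte2 label than under the Col label, at 2.59 ± 0.26 against 4.85 ± 0.26. The test of that difference gave -2.27 ± 0.37 (adjusted p = 0.00481).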
